A study of Mus musculus with 6 samples.

Results

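The 171 genes described here bear solute carrier symbols and could be measured in every library of mouse visceral fat. Of these, 167 were counted as carriers, including Slc3a2, a partner chain of carriers, and 4 encode other proteins. They were chosen by symbol and selected on raw counts: they are the autosomal protein-coding genes of GENCODE M21 whose symbol starts with Slc, a family number and the letter a, with 50 or more raw counts in each of the 6 libraries. Of 330 such autosomal genes, 10 well-known glucose, lactate, anion, carnitine and fatty acid carriers were left out by name, and 149 of the remaining 320 fell under 50 counts in at least 1 library. Of those 149 genes, 34 had no count in any library. Another 41 of them passed the filter on low counts, of which Slc6a7, the proline transporter of nerve endings, was called higher and none lower. The members belong to 43 Slc families and are set against 15828 tested genes among 46603 identifiers. Their presence in every library is therefore no finding, and a carrier silent in 1 genotype could not be a member. Just inside the threshold lay Slc12a5, with a lowest count of 54, Slc16a4 with 55 and Slc16a11 with 57, and just outside it Slc38a3 and Slc18a2 with 49 each and Slc30a2 with 48.

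RNA was sequenced from the tip of the abdominal visceral fat of untreated C57/Bl6 mice aged 18 months. The 3 WT libraries came from wild-type mice and the 3 NM1 KO libraries from mice without nuclear myosin 1, a nuclear isoform of the motor protein encoded by Myo1c. Neither the altered allele nor the sex of the mice is stated in the labels. The labels number the replicates without saying that each is a separate animal, so the p-values rest on a spread that may be technical. Levels are given as CPM, counts per 1000000 counts after TMM scaling, and each log2 fold change sets NM1 KO against WT, with its SE, from 3 libraries per group. A gene was called higher or lower when edgeR's quasi-likelihood test gave it an adjusted p under 0.05 over all tested genes, and "called" means by edgeR wherever no other tool is named.

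Solute carriers are membrane proteins that move small molecules across the cell surface or the membranes of organelles. Some let a substrate run down its own gradient, and others couple it to sodium or protons or exchange it for a second substrate. In fat they bring in amino acids, sugars, vitamins and metals, and those of the inner mitochondrial membrane (Slc25) carry citrate, phosphate, nucleotides and amino acids between the matrix and the cytosol, which links oxidation to fat synthesis. Macrophages, endothelial cells and stromal cells of the depot carry their own sets, so a bulk level sums over cell types, and fewer cells of a type and less RNA per cell cannot be told apart.

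Library totals ran from 24677758 to 33537818 counts. Myo1c, whose count covers all isoforms of the locus and therefore does not check the deletion, was not called (log2 -0.47 ± 0.17, adjusted p = 0.151). Adipocyte markers made up 44361 to 50947 CPM in WT and 34705 to 43673 CPM in NM1 KO, so fat cell transcripts were abundant in all libraries. The list does not test the visceral depot that the label names. Of 6 pancreatic markers, 4 were at 0 throughout. None of the 12 adipocyte markers was called, and 10 had a negative log2 fold change. All 12 macrophage markers had a positive log2 fold change and 7 were called, with sums of 1845 to 2321 CPM in WT and 4537 to 6752 CPM in NM1 KO. All 12 markers of vascular endothelium had a negative one and 9 were called, with sums of 1158.5 to 1550 CPM in WT and 428 to 662 CPM in NM1 KO. No marker of these 3 lists was at 0 in any library. Among the other lists, 2 of 9 tested mesothelial markers were called lower, 2 of 8 stromal progenitor markers and 1 of 10 T cell markers higher, and none of 7 B cell, 5 tested erythroid and 3 tested muscle markers was called, although all 5 erythroid markers had unadjusted p under 0.05. The part of these shifts in the carriers' values was not tested.

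**Figure D1:**
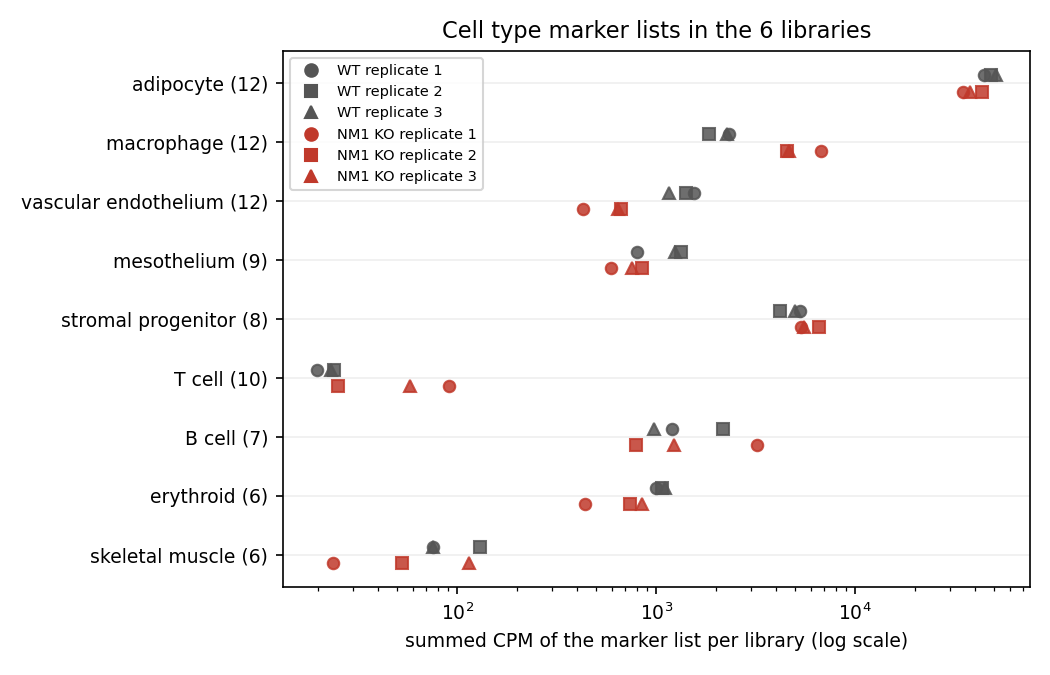
Summed CPM of each cell type marker list (number of genes in brackets) in each library, on a log scale, with WT in grey, NM1 KO in red and 1 symbol shape per replicate number. Macrophage sums lay at 1845 to 2321 CPM in WT and 4537 to 6752 CPM in NM1 KO, and endothelial sums at 1158.5 to 1550 CPM and 428 to 662 CPM.

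In aged visceral fat without nuclear myosin 1, 12 members of the set, 11 of them carriers, differed from the wild type. Of the 171 members, 7 were called higher and 5 lower. Those that rose were Slc37a2, Slc8a1, Slc15a3, Slc6a4, Slc36a4, Slc43a2 and Slc23a2, by log2 fold changes from 0.64 to 2.09. Those that fell were Slc43a1, Slc4a11, Slc52a3, Slc5a6 and Slc9a3r2, by log2 fold changes from -1.70 to -1.07. Called members made up 7.02% of the 171, against 4.25% of all tested genes and 4.5% of the tested genes with 50 or more counts in every library. By direction the shares were 4.09% higher and 2.92% lower, against 2.79% and 1.47% of all tested genes. All 171 members passed the filter on low counts, and their median log2 fold change was 0.029, with -0.0021 over all tested genes. This small median changed sign with upper-quartile factors (-0.013) and with an offset for GC content and length (-0.0089). For 64 members the CPM ranges of the 2 groups were apart (37.4%), with 30 of them higher and 34 lower in NM1 KO, against 29.9% of all tested genes.

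The number of calls changed when single libraries were left out, although all 12 called members kept their direction. The part of the smaller number of libraries in this was not tested. No member was called without WT replicate 1, WT replicate 2, WT replicate 3 or NM1 KO replicate 3, where the lowest adjusted p among the 12 was 0.0504, 0.0578, 0.0859 and 0.0616. In those fits 37, 4, 1 and 5 of all genes were called. Without NM1 KO replicate 1, 6 of the 12 were called, and without NM1 KO replicate 2 all 12 and 16 more. NM1 KO replicate 1 lay farthest from WT for 10 of the 12 called members and for 44 of the 64 whose ranges did not overlap, and it also had the highest macrophage sum and the lowest endothelial sum. DESeq2 called 33 members (19.3%, against 12.8% of all genes it tested) and limma-voom with quality weights 30 (17.5%, against 10.4%), and each included all 12. At an unadjusted p under 0.05, edgeR passed 36.3% of the members and 23.7% of all tested genes.

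**Figure D2:**
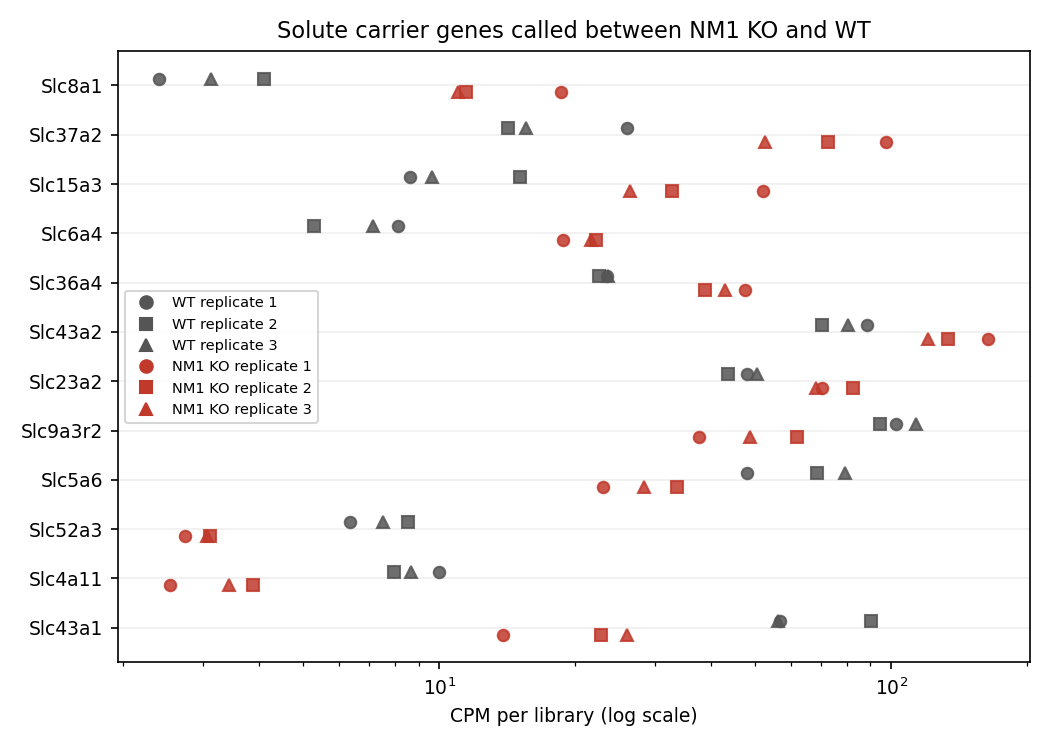
CPM of the 12 called members in each library on a log scale, with WT in grey above and NM1 KO in red below each line. The groups do not overlap for any of them, a property shared by 29.9% of all tested genes, and NM1 KO replicate 1 (red circles) lies farthest from WT for 10 of the 12.

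Promoter windows are shown for 3 members with large or opposed changes, namely Slc37a2 and the closely related leucine carriers Slc43a2, which rose, and Slc43a1, which fell. Each runs from 250 bases before to 50 bases after a RefSeq start site on GRCm38.p6, 5′ to 3′ on the gene's strand. Capitals mark letters matching TGANTCA (AP-1), CACGTG (an E-box) or GAGGAA (the core of PU.1-type ETS sites), each sought on both strands, and no matches overlap in these windows. The RefSeq start of Slc43a1 lies inside the GENCODE span of the gene. The Slc37a2 window is chr9:37255689-37255988 on the minus strand, that of Slc43a2 chr11:75531444-75531743 on the plus strand, and that of Slc43a1 chr2:84840073-84840372 on the plus strand.
Slc37a2: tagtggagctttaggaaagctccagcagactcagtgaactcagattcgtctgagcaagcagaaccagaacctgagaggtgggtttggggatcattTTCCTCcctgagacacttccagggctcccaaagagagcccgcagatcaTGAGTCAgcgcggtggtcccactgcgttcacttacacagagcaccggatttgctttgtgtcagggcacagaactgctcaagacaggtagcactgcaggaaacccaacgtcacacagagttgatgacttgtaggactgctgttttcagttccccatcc
Slc43a2: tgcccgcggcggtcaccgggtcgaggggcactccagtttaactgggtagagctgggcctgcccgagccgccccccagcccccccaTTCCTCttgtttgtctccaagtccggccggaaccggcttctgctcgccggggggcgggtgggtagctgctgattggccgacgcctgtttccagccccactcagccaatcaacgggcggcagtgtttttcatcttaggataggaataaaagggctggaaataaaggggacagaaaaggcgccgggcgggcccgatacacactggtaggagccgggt
Slc43a1: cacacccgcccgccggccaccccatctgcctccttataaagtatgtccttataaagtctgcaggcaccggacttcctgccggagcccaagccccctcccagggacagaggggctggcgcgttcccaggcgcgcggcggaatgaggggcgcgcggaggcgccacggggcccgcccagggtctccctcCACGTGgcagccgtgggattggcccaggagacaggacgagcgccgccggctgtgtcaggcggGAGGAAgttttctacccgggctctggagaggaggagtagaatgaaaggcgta
The Slc37a2 window holds 1 AP-1 match and 1 GAGGAA match, that of Slc43a2 1 GAGGAA match, and that of Slc43a1 1 E-box and 1 GAGGAA match. Among 32851 windows of the same length, 7.81% hold the AP-1 letters, 7.15% the E-box and 28.3% GAGGAA. Of the 131 members with a window, 6.87%, 14.5% and 24.4% hold them. The Slc37a2 window has 7 CpG pairs and a GC content of 52.7%, against 22 and 63.7% for Slc43a2 and 26 and 67.7% for Slc43a1. These matches describe letters and show no binding.

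Amino acid and peptide carriers of the surface, lysosome and other non-mitochondrial membranes numbered 29, of which 3 were called higher and 1 lower. These calls made up 13.8% of the class, against 4.25% of all tested genes. An unadjusted p under 0.05 was met by 8 (27.6%), against 23.7% of all tested genes. The class median was 0.11, with 18 positive and 11 negative log2 fold changes, and it was 0.0100 in a fit with an offset for GC content and exonic length in each library and 0.013 without NM1 KO replicate 1. Slc43a1 and Slc43a2, which both carry leucine and other large neutral amino acids across the cell surface, moved in opposite directions. Slc43a1 (ENSMUSG00000027075, chromosome 2, 84838850 to 84863594 on GRCm38) was at 56.6, 90.4 and 56.3 CPM in WT replicates 1 to 3 and at 13.9, 22.8 and 25.98 CPM in NM1 KO replicates 1 to 3. Every NM1 KO library lay under the lowest WT library, for a log2 fold change of -1.70 ± 0.29 (adjusted p = 0.0304). Slc43a2 (ENSMUSG00000038178, chromosome 11, 75531694 to 75577575) was at 88.5, 70.2 and 80.2 CPM in WT and at 164, 134 and 120 CPM in NM1 KO, a rise of 0.81 ± 0.15 (adjusted p = 0.0342).

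Slc36a4, a carrier of proline and tryptophan, was at 23.5, 22.5 and 23.6 CPM in WT and at 47.6, 38.8 and 43.0 CPM in NM1 KO. The NM1 KO mean of 43.1 ± 4.40 CPM (SD, n = 3) stood against 23.2 ± 0.598 CPM, a log2 fold change of 0.89 ± 0.11 (adjusted p = 0.0186). Slc15a3, a proton-coupled carrier of histidine and short peptides in the lysosomes of immune cells, was at 8.62, 15.1 and 9.62 CPM in WT and at 52.2, 32.7 and 26.5 CPM in NM1 KO. It rose by a log2 of 1.74 ± 0.31 (adjusted p = 0.0342), with its highest value in NM1 KO replicate 1. The span of Slc15a3 overlaps that of Tmem132a on the other strand, which was not called (log2 0.97 ± 0.23, adjusted p = 0.0608), and the sources used here do not give the strand setting of the counting.

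Slc1a5, the exchanger that takes up glutamine and other neutral amino acids, was the most abundant member by far. Over the 6 libraries it averaged 584 CPM per kilobase of exon, with the adenine nucleotide carrier Slc25a4 next at 129 CPM per kilobase. It was at 2965, 2859 and 2885 CPM in WT and at 1666, 2364 and 1892 CPM in NM1 KO, so the groups did not overlap. The log2 fold change of -0.56 ± 0.16 was not called (adjusted p = 0.102), but was called without NM1 KO replicate 2, by DESeq2 and by limma-voom. Slc1a5 alone made up 23.3% to 24.8% of the members' summed CPM in WT and 15.5% to 20.1% in NM1 KO. The summed level of the class was 4813 to 4972 CPM in WT and 3693 to 4472 CPM in NM1 KO, and without Slc1a5 it was 1929 to 2047 CPM and 1801 to 2109 CPM, where the ranges overlapped.

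Other amino acid carriers were not called by edgeR. DESeq2 called 7 of the 29 (24.1%, against 12.8% of all genes it tested), among them Slc1a3 and Slc6a6. Slc1a3, a glutamate and aspartate carrier, was at 201, 313 and 288 CPM in WT and at 75.1, 120.5 and 191 CPM in NM1 KO (log2 -1.05 ± 0.34, adjusted p = 0.121). Slc6a6, the taurine transporter, was at 176, 160 and 164 CPM in WT and at 300.4, 275 and 184 CPM in NM1 KO (log2 0.60 ± 0.18, adjusted p = 0.111). Neither gene's groups overlapped. Slc3a2, the heavy chain that brings several Slc7 light chains to the cell surface, had the smallest log2 fold change of the class (0.0048 ± 0.12), at 205 ± 13.7 CPM in WT and 205 ± 22.7 CPM in NM1 KO. Among its light chains, Slc7a10, a carrier of small neutral amino acids found in white fat cells, was at 302 ± 66.3 and 232 ± 54.2 CPM (adjusted p = 0.343), and Slc7a5, a leucine carrier, at 14.9 ± 5.84 and 11.5 ± 0.444 CPM (adjusted p = 0.432).

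Sugar and polyol carriers numbered 14, with 1 called (7.14%, against 4.25% of all tested genes). Slc37a2 (ENSMUSG00000032122, chromosome 9, 37227585 to 37255738), a sugar phosphate and phosphate exchanger of the endoplasmic reticulum known from macrophages, was at 26.03, 14.2 and 15.6 CPM in WT and at 97.4, 72.5 and 52.6 CPM in NM1 KO. Its lowest NM1 KO library was above its highest WT library, and the rise was 1.99 ± 0.31 on the log2 scale (adjusted p = 0.0259). The class median was 0.15, and 0.052 without NM1 KO replicate 1. The summed level of the class was 292 to 330.3 CPM in WT and 361 to 449.8 CPM in NM1 KO, and without Slc37a2 it was 277 to 304 CPM and 289 to 352 CPM. The myo-inositol carriers Slc2a13 (log2 0.73 ± 0.30, adjusted p = 0.197) and Slc5a3 (log2 0.55 ± 0.30, adjusted p = 0.304) were not called, although Slc5a3 was without NM1 KO replicate 2. Slc5a3 was at 115 and 98.4 CPM in NM1 KO replicates 1 and 3 but at 47.5 CPM in replicate 2, under all WT libraries. Slc50a1 and Slc2a8, the most abundant sugar carriers of the class per kilobase (28.04 and 9.83 CPM), were not called either, with adjusted p of 0.147 and 0.483.

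Carriers of vitamins and choline held 3 calls among 11 members (27.3%, against 4.25% of all tested genes), in both directions. An unadjusted p under 0.05 was met by 6 (54.5%), against 23.7% of all tested genes. Slc5a6, the sodium-coupled carrier of biotin and pantothenate, fell from 47.9, 68.5 and 79.1 CPM in WT to 23.01, 33.6 and 28.3 CPM in NM1 KO (log2 -1.20 ± 0.22, adjusted p = 0.0342). Slc52a3, a riboflavin carrier, fell from 6.36, 8.53 and 7.49 CPM to 2.74, 3.11 and 3.06 CPM (log2 -1.33 ± 0.21, adjusted p = 0.0264). Slc23a2, a sodium-coupled carrier of ascorbate, rose from 47.9, 43.5 and 50.6 CPM to 70.1, 82.2 and 68.2 CPM (log2 0.64 ± 0.12, adjusted p = 0.0342). The groups were separate for all 3, and the class median was -0.038, which changed sign with the GC and length offset (0.055), without WT replicate 2 (0.053) and without NM1 KO replicate 3 (0.022). Slc44a1, a choline carrier, was the most abundant of the class per kilobase and was not called (80.6 ± 8.72 against 112 ± 9.18 CPM, adjusted p = 0.0685), but was by DESeq2. Slc5a6 overlaps the gene Atraid, which was not called.

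Carriers of inorganic ions numbered 21, with 1 called in each direction (9.52% together, against 4.25% of all tested genes) and a median of -0.098. The groups did not overlap for 12 of the 21 members, 5 higher and 7 lower in NM1 KO, against 29.9% of all tested genes. An unadjusted p under 0.05 was met by 11 (52.4%), against 23.7% of all tested genes. DESeq2 called 4 of the 21 and limma-voom 6 (28.6%), against 12.8% and 10.4% of all genes. Leaving out NM1 KO replicate 1 put the median at 0.016, and leaving out replicate 2 of that genotype at -0.17. Slc8a1, the sodium-calcium exchanger of the cell surface, rose from 2.40, 4.09 and 3.13 CPM in WT to 18.6, 11.5 and 11.004 CPM in NM1 KO. This was the largest log2 fold change of the 171 members, at 2.09 ± 0.30 (adjusted p = 0.0222), from the second lowest level per kilobase. Slc4a11, a proton or hydroxide carrier of the bicarbonate transporter family, fell from 9.98, 7.93 and 8.66 CPM to 2.54, 3.88 and 3.42 CPM (log2 -1.43 ± 0.23, adjusted p = 0.0270). Slc4a7, a sodium bicarbonate cotransporter, was at 24.5, 27.2 and 23.1 CPM in WT and at 71.1, 33.4 and 54.5 CPM in NM1 KO and was not called (log2 1.09 ± 0.26, adjusted p = 0.0640). Slc12a5, a potassium chloride cotransporter, was not called either (log2 -1.18 ± 0.35, adjusted p = 0.101). DESeq2 and limma-voom called both, as did edgeR without NM1 KO replicate 2. Slc12a4 and Slc24a3, the most abundant per kilobase (23.2 and 21.9 CPM), had adjusted p of 0.384 and 0.146.

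No carrier of metals and haem was called by edgeR among 26 members, with 19 positive and 7 negative log2 fold changes and a median of 0.14. The median was 0.22 without WT replicate 2 and 0.064 with the GC and length offset. At an unadjusted p under 0.05, 7 passed (26.9%), and DESeq2 called 3 (11.5%) and limma-voom 1 (3.85%), shares near or under those of all genes. Slc40a1, ferroportin, which exports iron, was at 19.8, 4.95 and 13.7 CPM in WT and at 75.8, 37.4 and 35.7 CPM in NM1 KO. Its groups did not overlap, but the WT libraries spread widely, with an SD of 7.47 CPM around a mean of 12.8 CPM, and the log2 fold change of 1.96 ± 0.52 was called by DESeq2 but not by edgeR (adjusted p = 0.0808). Slc11a1, a metal carrier of macrophage phagosomes, was at 73.0, 56.1 and 75.1 CPM in WT and at 155, 115 and 100.1 CPM in NM1 KO (log2 0.86 ± 0.19, adjusted p = 0.0567). Slc11a1 was called without a filter on low counts, with the GC and length offset and by DESeq2. The zinc importer Slc39a8 was at 202 CPM in WT replicate 2, against 21.7 and 57.7 CPM in the other WT libraries and 52.9 to 66.9 CPM in NM1 KO, and its log2 fold change of -0.69 became 0.54 without that library. Slc39a14, a carrier of the same family, was likewise highest in WT replicate 2, at 44.98 CPM. Mt1 and Mt2, from the list of iron, haem and zinc handling below, were also highest there. Mt1 was at 738 CPM in that library, against 126 to 191 CPM in the others, and Mt2 at 676 CPM, against 61.2 to 119 CPM. The cause was not tested. Slc48a1, which carries haem, and Slc39a1, a zinc importer, were the most abundant of the class per kilobase (117 and 81.4 CPM), with adjusted p of 0.226 and 0.564.

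Mitochondrial carriers held no call by edgeR among 33 members, while 9 (27.3%) had an unadjusted p under 0.05, DESeq2 called 4 (12.1%) and limma-voom 5 (15.2%), against 23.7%, 12.8% and 10.4% of all genes. The class had 13 positive and 20 negative log2 fold changes and a median of -0.11. The groups did not overlap for 9 of the 33 members, against 29.9% of all tested genes. The median was -0.0066 with the GC and length offset, -0.026 without NM1 KO replicate 1 and -0.18 when replicate 2 was left out instead. Their summed level was 2578 to 2859 CPM in WT and 2544 to 2766 CPM in NM1 KO. The 6 carboxylate carriers, which include the citrate carrier Slc25a1 and the dicarboxylate carrier Slc25a10, had no member whose groups separated. Slc25a1 was at 271 ± 49.1 and 279 ± 7.58 CPM and Slc25a10 at 279 ± 62.7 and 312 ± 35.4 CPM (adjusted p = 0.881 and 0.632). The adenine nucleotide carrier Slc25a4 was at 310 ± 20.3 and 295 ± 14.3 CPM, and the phosphate carrier Slc25a3 at 438 ± 36.2 and 388 ± 25.03 CPM (adjusted p = 0.716 and 0.401). A p above the threshold does not show that these levels were equal.

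Slc25a13, the aspartate-glutamate carrier citrin, was at 2.92, 2.84 and 2.97 CPM in WT and at 9.08, 7.94 and 3.53 CPM in NM1 KO (log2 1.23 ± 0.36, adjusted p = 0.0970), and DESeq2 alone of the 3 tools called it. The mitoferrins Slc25a37 and Slc25a28, which import iron, were both lower without overlap. Slc25a37 was at 49.3 ± 3.16 CPM in WT and 35.6 ± 2.95 CPM in NM1 KO (log2 -0.47 ± 0.11, adjusted p = 0.0615), and Slc25a28 at 51.5 ± 3.79 and 39.9 ± 3.14 CPM (log2 -0.37 ± 0.11, adjusted p = 0.107). Slc25a37 was called with the GC and length offset, by DESeq2 and by limma-voom, and Slc25a28 by limma-voom. Slc25a42, a coenzyme A carrier, was not called by edgeR (log2 -0.61 ± 0.19, adjusted p = 0.116), and Slc25a24, which exchanges magnesium ATP for phosphate, was not either (log2 0.43 ± 0.11, adjusted p = 0.0758). DESeq2 and limma-voom called both, as did edgeR without NM1 KO replicate 2. The glutathione carrier Slc25a39 was at 58.1 CPM per kilobase with an adjusted p of 0.470.

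Neurotransmitter carriers were 3 members with 1 called (33.3%, against 4.25% of all tested genes). Slc6a4 (ENSMUSG00000020838, chromosome 11, 76998603 to 77032340), the serotonin transporter, was at 8.10, 5.27 and 7.13 CPM in WT and at 18.8, 22.2 and 21.6 CPM in NM1 KO. Its rise of 1.61 ± 0.19 had the lowest adjusted p of all members (0.0182), and its NM1 KO libraries were close together at 20.9 ± 1.80 CPM. Slc6a13, a carrier of GABA and taurine at 111 ± 7.12 and 82.2 ± 18.1 CPM (adjusted p = 0.169), was not called but was by limma-voom and without NM1 KO replicate 2. Slc22a3, an organic cation carrier that clears monoamines, was at 127 ± 35.3 and 100.1 ± 26.3 CPM (adjusted p = 0.433).

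Slc6a4 and Slc43a2 lie on the chromosome of the targeted locus. The start of Slc43a2 is 0.119 Mb before that of Myo1c, and the start of Slc6a4 1.35 Mb after it. They are 2 of the 3 members within 5 Mb, and the third, the folate carrier Slc46a1, was not called (log2 0.025 ± 0.18). Of the 15 members more than 6 Mb away, none was called by edgeR, 1 by DESeq2 and 0 by limma-voom, and 2 had an unadjusted p under 0.05. Slc16a11 and Slc16a13, neighbours about 5.44 and 5.43 Mb before Myo1c, had log2 fold changes of -0.93 ± 0.29 and -0.57 ± 0.20. Neither was called by edgeR, while DESeq2 called Slc16a11. Slc25a11, also between 5 and 6 Mb before Myo1c, was not called (log2 0.043 ± 0.10). Distance from the targeted locus and genotype cannot be told apart for these genes.

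**Figure D3:**
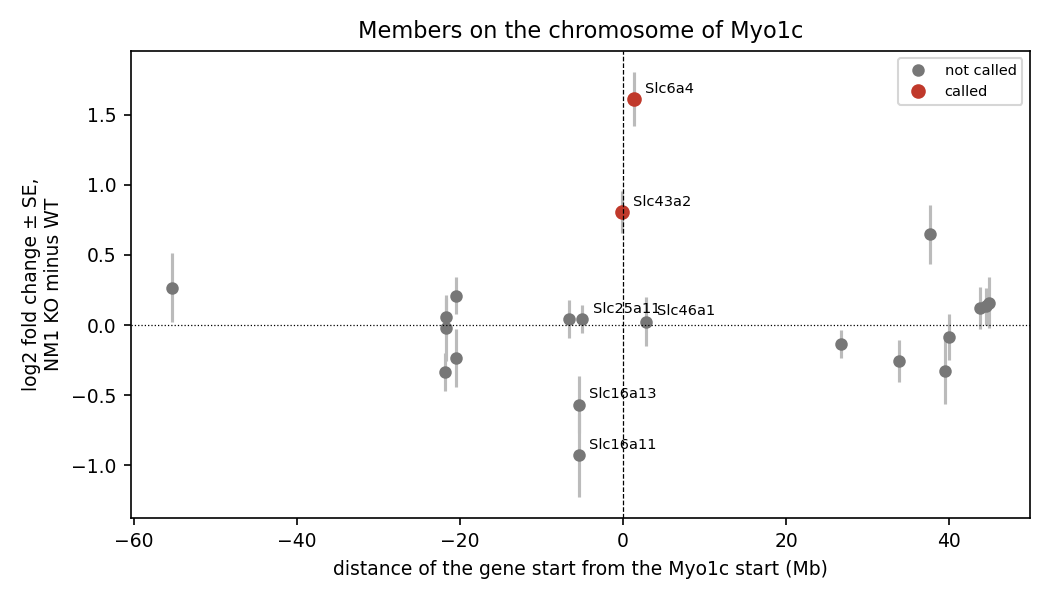
Log2 fold change (NM1 KO minus WT, bars ± SE) of the 21 members on the chromosome of Myo1c against the distance of their start from that of Myo1c in Mb. The called genes Slc43a2 and Slc6a4 lie 0.119 Mb before and 1.35 Mb after it, and edgeR called no other member on this chromosome, while DESeq2 also called Slc16a11 and Slc39a11.

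Nucleoside and nucleobase carriers, 5 members, held no call by edgeR, and 3 had an unadjusted p under 0.05. Slc43a3, a purine nucleobase carrier, was at 258, 247 and 275 CPM in WT and at 167, 206 and 199 CPM in NM1 KO (log2 -0.45 ± 0.12, adjusted p = 0.0776). Slc28a2, a sodium-coupled purine nucleoside carrier, was not called (log2 -0.44 ± 0.12, adjusted p = 0.0811). Slc29a3, a nucleoside carrier of lysosomes, was higher without overlap, at 38.1 ± 6.08 CPM in WT and 57.2 ± 3.10 CPM in NM1 KO (log2 0.58 ± 0.13, adjusted p = 0.0593). Both DESeq2 and limma-voom called these 3.

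The 9 members classed as cell surface carriers of carboxylates had the highest median of the larger classes, 0.40. There were 5 positive and 4 negative values and no call by edgeR. The class also holds the sulfate carrier Slc13a4 (log2 0.43 ± 0.27), and the median without that gene was not computed. At an unadjusted p under 0.05, 4 passed (44.4%, against 23.7% of all tested genes), 3 of them lower in NM1 KO. All 3 members whose groups did not overlap were lower, and 29.9% of all tested genes had groups apart. DESeq2 called 2 (22.2%) and limma-voom 1 (11.1%), against 12.8% and 10.4% of all genes. With the GC and length offset the median was 0.027, and without NM1 KO replicate 1 or WT replicate 2 it was 0.18 or 0.16. Slc13a3, a sodium-coupled dicarboxylate carrier, was at 15.2, 8.89 and 16.1 CPM in WT and at 3.93, 6.96 and 6.59 CPM in NM1 KO (log2 -1.20 ± 0.31, adjusted p = 0.0769), and DESeq2 and limma-voom called it. Slc16a12, a creatine carrier, was at 45.7, 27.7 and 14.9 CPM in NM1 KO against 14.96 ± 2.54 CPM in WT (adjusted p = 0.177). Among the 9 organic ion and bile salt carriers, the median was -0.13, and -0.27 without WT replicate 2. None was called by edgeR, and DESeq2 and limma-voom each called 1, Slc10a6. An unadjusted p under 0.05 was met by 3 (33.3%), against 23.7% of all tested genes. The steroid sulfate carrier Slc10a6 was at a log2 of -0.68 ± 0.17 (adjusted p = 0.0732), the carnitine carrier Slc22a5 at -0.33 ± 0.13 (adjusted p = 0.190), and the ergothioneine carrier Slc22a4 at 0.057 ± 0.14. The 6 carriers of nucleotide sugars, sialic acid and acetyl-CoA ran from -0.23 to 0.43. The only lipid carrier, Slc27a3, a relative of the fatty acid transport proteins, was at 13.3, 15.6 and 12.5 CPM in WT and at 3.64, 8.36 and 6.85 CPM in NM1 KO and was not called by edgeR (adjusted p = 0.0811). It was called by DESeq2, by limma-voom, without the filter on low counts and without NM1 KO replicate 2.

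The last 4 members match the symbol pattern but encode no carrier. Slc9a3r2, a PDZ scaffold protein that binds sodium-proton exchangers, fell from 102, 94.5 and 114 CPM in WT to 37.6, 61.7 and 48.6 CPM in NM1 KO (log2 -1.07 ± 0.19, adjusted p = 0.0312). Its relative Slc9a3r1 was at 66.2, 130 and 104 CPM in WT and at 80.9, 86.7 and 71.1 CPM in NM1 KO and was not called (adjusted p = 0.436).

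**Figure D4:**
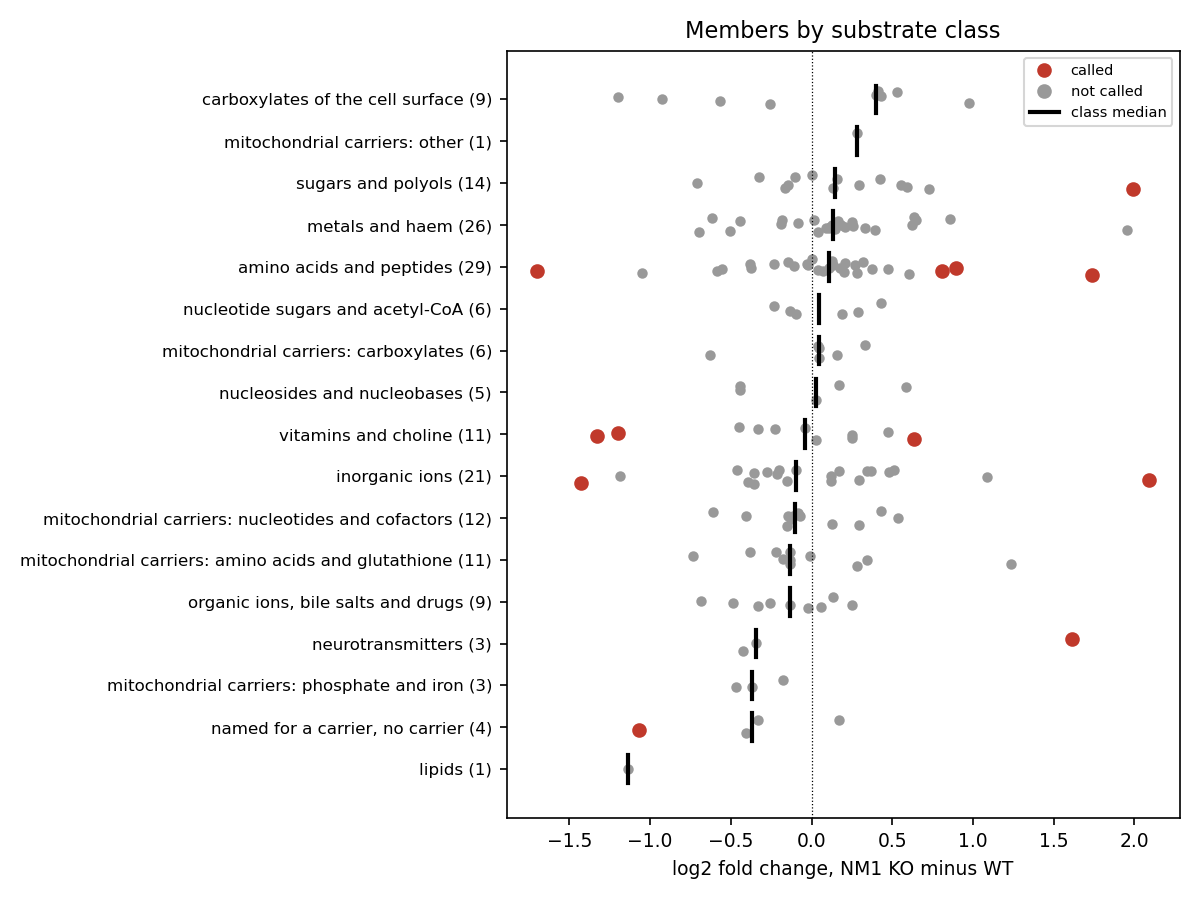
Log2 fold change (NM1 KO minus WT) of each of the 171 members by substrate class, with the number of members in brackets, called members in red and the class median as a black bar. Classes of 5 or more members had medians between -0.13 and 0.40, and called members lay on both sides of 0 in the amino acid, vitamin and inorganic ion classes.

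**Figure D5:**
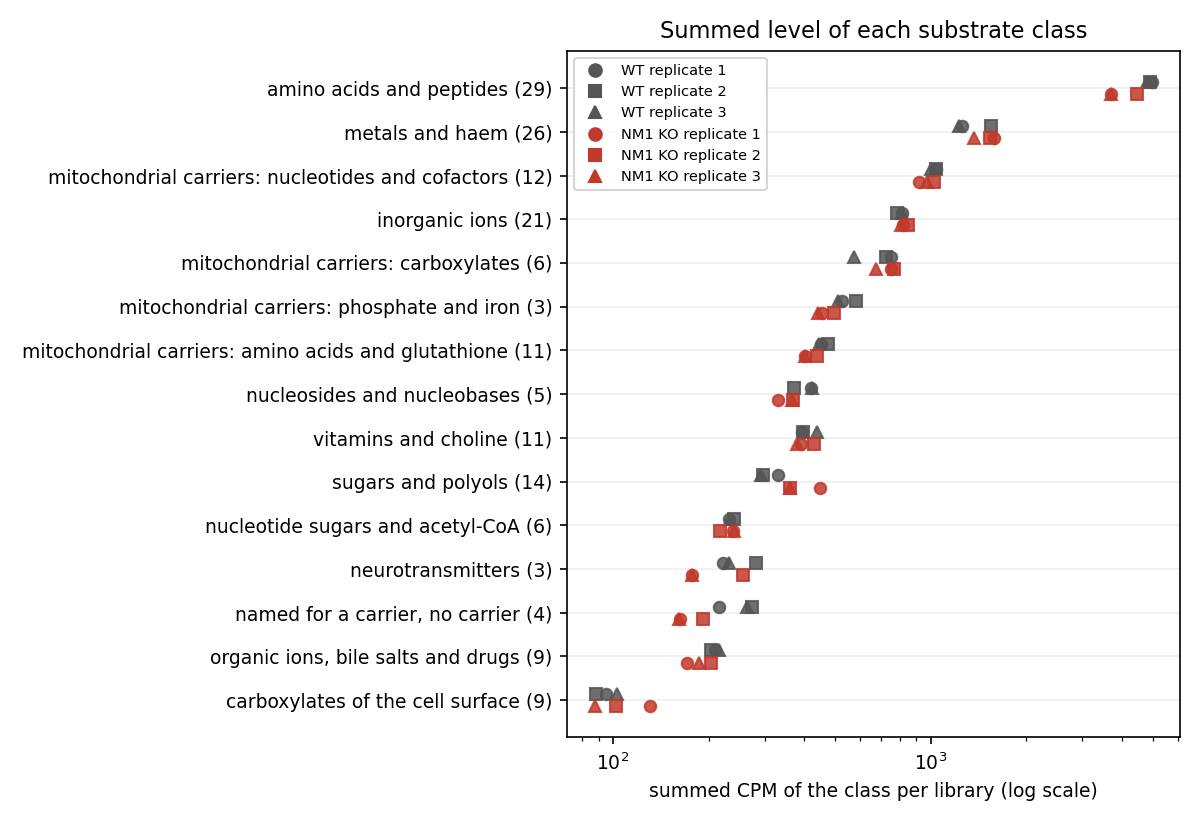
Summed CPM of the members of each class of more than 1 gene in each library on a log scale, with WT in grey and NM1 KO in red. The amino acid class was highest, at 4813 to 4972 CPM in WT and 3693 to 4472 CPM in NM1 KO, and the summed level of all mitochondrial carriers was 2578 to 2859 CPM and 2544 to 2766 CPM.

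Carriers of the lysosome were gathered after their values were seen and carry no test. Of 10 such members, 9 had a positive log2 fold change, against 90 of all 171 members, with a median of 0.29. The only call was Slc15a3, and 4.25% of all tested genes were called. The summed level of the 10 was 535 to 627 CPM in WT and 653 to 855 CPM in NM1 KO. The highest sum was again in NM1 KO replicate 1, which also had the highest macrophage sum.

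Genes that work with carriers were described from lists. Of 16 partners and driving pumps, 1 was called higher, the kinase Wnk1, which controls the Slc12 cotransporters (214 ± 6.89 against 363 ± 57.9 CPM, log2 0.76 ± 0.14, adjusted p = 0.0339), and the median was 0.0099. Of 26 tested solute carriers with other symbols, 1 was called lower, Spns2, an exporter of sphingosine 1-phosphate from endothelium. It was at 42.4 ± 8.24 CPM in WT and 21.6 ± 3.91 CPM in NM1 KO (adjusted p = 0.0403). The start of Spns2 lies 3.20 Mb before that of Myo1c, so distance from the targeted locus and genotype cannot be told apart for it either. Of 15 genes of iron, haem and zinc handling, 1 was called lower, Trf, which encodes the iron carrier transferrin (86.7 ± 12.8 against 53.5 ± 3.75 CPM, adjusted p = 0.0376). Of 12 genes of the ATF4 amino acid response, 1 was called higher, the lipoprotein receptor Vldlr, and 8 had a negative log2 fold change. The medians of the last 3 lists were -0.039, 0.16 and -0.17. With the GC and length offset, the median of iron, haem and zinc handling was -0.0091 and the median of ATF4 amino acid response 0.012, so both changed sign. Without WT replicate 2, the median of iron, haem and zinc handling was 0.36.

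The members' log2 fold changes also followed base composition. Genes are no independent replicates, and across the 171 members Spearman's rho with the log2 fold change was -0.48 for GC content of the transcripts and 0.30 for exonic length, against -0.39 and 0.23 across 13933 tested protein-coding genes. Median GC content was 50.2% in the 7 members that rose and 54.0% in the 5 that fell. With the GC and length offset, 17 members were called (9.94%, against 4.96% of all genes), 9 higher and 8 lower, among them all 12.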

How the data were processed

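RNA from visceral fat of 3 WT and 3 NM1 KO libraries was sequenced. The authors deposited 1 table of raw counts per library, with Ensembl identifiers and no normalization. Per the submitters' processing notes, reads went through steps with HISAT2 2.0.4, HTSeq, FastQC, Trimmomatic 0.36 and SAMtools 0.1.19, on build GRCm38. Names, positions, exonic lengths and GC content came from GENCODE M21, which matched 46005 of 46603 identifiers, and promoters from RefSeq (GRCm38.p6), which held 131 of the 171 members.

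Counts were fitted with edgeR 4.0.16 (filterByExpr, TMM, robust quasi-likelihood, genotype as the only term, R 4.3.3), and p-values were adjusted by Benjamini-Hochberg over 15828 genes, with 0.05 as the threshold. Dividing the absolute log2 fold change by the root of its F statistic gave the SE. DESeq2 1.42.0, limma 3.58.1 and the other settings of the closing section were alternatives. Simulated data for this comparison held 15828 genes with 200 changed. There 28.4% of the 2-fold and 91.8% of the 4-fold changes were recovered, and 4.03% of the calls were false. The simulation gave every gene the same relative spread beyond sampling noise and drew the libraries independently. These shares therefore need not hold for the real calls. Library pairs within a group differed by more than sampling noise.

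The members, substrate classes, marker lists and pathway lists were chosen with earlier results of these data known, and the lysosomal list after its values were seen. Named were every called member, the 2 most abundant per kilobase and the 2 with the largest change at an unadjusted p under 0.05 in each class, genes next to the count threshold, the member of the largest class nearest to a log2 fold change of 0, and called genes of the pathway lists. Other members, such as Slc1a3, Slc6a6, Slc39a8 and Slc4a7, and the listed genes Mt1 and Mt2 were named after their values were seen. Some members that the rule names are not reported here. Figures were drawn with matplotlib 3.10.9.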

Additional observations from a re-analysis of the deposited data

How the results depend on the processing

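RLE or upper-quartile factors, library totals, a CPM filter and a non-robust fit each called 12 members, 7 higher and 5 lower, and all 12 called members kept their direction in every alternative run. With single libraries left out, members called ran from 0 to 28, those higher from 0 to 15, those lower from 0 to 13, and all genes called from 1 to 1654. DESeq2 called 33 members, 16 higher and 17 lower, among 2193 genes, and limma-voom with quality weights 30, 11 higher and 19 lower, among 1648 genes. The GC and length offset called 8 members lower. Without a filter on low counts 16 members were called. The cause of these shifts was not tested.

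Deviations of same-numbered libraries from their group means had r of -0.06, -0.0354 and 0.188, and differently numbered pairs ran from -0.0975 to 0.112. The value for replicate 3 was thus the highest of all pairs. With 3 libraries per group these values cannot show whether the replicate numbers pair the samples, and the labels do not say. With the replicate block, 6 members were called, 4 higher and 2 lower, among 336 genes, and with the block and the GC and length offset 14.

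Some uncalled members changed sign, most of them near 0 but also Slc39a8 (-0.69) and Slc39a14 (-0.44), all on the log2 scale, and the cause was not tested. With the GC and length offset, and with that and the replicate block, Slc25a39 was at 0.082 and 0.083, and Slc2a8 at 0.041 and 0.044. Slc3a2 was at -0.033 and Slc46a1 at -0.013 with upper-quartile factors, and at -0.022 and -0.00090 with library totals. Slc3a2 was at -0.0021 with the CPM filter and -0.090 with limma-voom, which put Slc39a8 at 0.35. With single libraries left out, the ranges were -0.078 to 0.19 for Slc25a1, -0.043 to 0.094 for Slc3a2, -0.046 to 0.14 for Slc22a4, -0.079 to 0.20 for Slc46a1, -0.71 to 0.17 for Slc39a14, -0.31 to 0.0033 for Slc39a1 and -1.16 to 0.54 for Slc39a8.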
